A study of Saccharomyces cerevisiae with 24 samples.

Results

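Amino acid biosynthesis enzymes of budding yeast were followed across ribosome footprints and poly(A) mRNA of a zuo1Δ mutant and its wild-type strain. The members were 52 of the 5211 genes in the count table, taken from a list given for this work: PRO3 and the enzymes with HIS, LEU, BAT, ILV, ARG, CPA, LYS, TRP, ARO, HOM, THR, SER and ASN names. They fall into 11 pathways: 8 genes for arginine, 7 for lysine, 7 for isoleucine and valine, 6 for histidine, 5 for aromatic synthesis (the ARO genes), 5 for homoserine and threonine, 4 for serine, 4 for tryptophan, 3 for leucine, 2 for asparagine and 1 for proline. The genes lie on 15 chromosomes, and none overlaps another measured gene in the R64 gene table.

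Yeast can make every amino acid itself, and cells in complete medium still express most of the enzymes. The general amino acid control is the shared layer of regulation: scarcity raises translation of the transcription factor Gcn4, which activates genes of many of these pathways together. Separate layers act on single branches, such as Leu3 on leucine and branched-chain genes, Lys14 on lysine genes and the arginine-responsive complex of Arg80 and Arg81 on arginine genes. Zuo1, the protein missing in the mutant, is a ribosome-bound J-domain protein, a partner of Ssz1 and of the Hsp70 Ssb in handling nascent chains.

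All cells were of strain BY4741, grown in synthetic complete medium with glucose to an OD600 of 0.6. The zuo1Δ mutant and the wild type were each taken after 0.25 mM H2O2 for 30 min, after 45 min at 37 °C (reached by adding hot fresh medium) or unstressed at 30 °C. Each of the 12 groups of assay, genotype and condition had 2 biological replicates, 24 libraries in all. BY4741 carries a deletion in HIS3 and lacks LEU2, MET17 and URA3, so its histidine and leucine pathways are incomplete in both genotypes; LEU2, MET17 and URA3 were not analysed here. The labels do not say which cultures, if any, carried a selective marker, or whether the replicates came from separate mutant isolates. Since the heat cultures were diluted with fresh medium and the others were not, dilution and temperature cannot be told apart.

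Library totals ran from 1686930.0 to 15788345 counts for footprints and from 7810893 to 122213415 counts for mRNA. ZUO1 had 0 counts in all 12 zuo1Δ libraries and 1987 to 32580 counts in the wild-type ones. Of 12 genes of the oxidative stress response, 10 could be compared, while OYE3 and FLR1 were at 0 in wild type. In footprints labelled H2O2 their median log2 level over the unstressed libraries was -0.29 (replicate 1) and 2.32 (replicate 2) in zuo1Δ, against 2.35 and 2.5 in wild type. In mRNA the same genes stood at 1.57 and -0.31 in the zuo1Δ libraries labelled H2O2 replicates 1 and 2, and at 1.95 and -0.35 in those labelled heat replicates 1 and 2. In 3 zuo1Δ libraries (footprints labelled H2O2 replicate 1, mRNA labelled H2O2 replicate 2 and mRNA labelled heat replicate 1) the markers thus went against the label. The zuo1Δ mRNA library labelled H2O2 replicate 2 had oxidative markers near the unstressed level and the one labelled heat replicate 1 had them raised; whether these 2 libraries were exchanged was not tested, so zuo1Δ mRNA values under both stresses are values of the libraries as labelled. For the members, several counts of calls that rest on the 3 libraries, and main values among them, are given with and without them. Member counts averaged over the conditions are given only with the 3 libraries included. The same holds for the calls of the regulators and of further pathway genes, which were not recounted without them. In zuo1Δ heat footprints the median of 12 heat shock genes was 0.13 and -0.65, against 1.60 and 1.18 in wild-type heat footprints. These genes did not move together in zuo1Δ. HSP26, a small heat shock protein gene, had 576 and 454 CPM after heat and 89.6 and 49.0 CPM unstressed. Its wild-type heat libraries had 1081 and 843 CPM. Mean SSA4 footprints in zuo1Δ went from 75.9 CPM unstressed to 436 CPM after heat. Those of STI1 went from 1150 to 487 CPM, of SIS1 from 459 to 198 CPM and of HSP104 from 1000 to 764 CPM. Whether the zuo1Δ heat footprint libraries match their label was not tested, and they are not among the 3 doubted ones.

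Levels below are in CPM, the count scaled to the library total after TMM correction. Differences are log2 fold changes ± SE from edgeR's quasi-likelihood test, and "passed" means an adjusted p (Benjamini-Hochberg, all genes tested) under 0.05. Counts are shares of a library, so fewer transcripts of a gene and more of all others cannot be told apart. Per kilobase of coding length, unstressed wild-type footprints ranged from 4.02 CPM per kb for ARG3, the ornithine carbamoyltransferase gene, to 3670 for ILV5, the acetohydroxyacid reductoisomerase gene. HOM6 (homoserine dehydrogenase) followed at 1310 CPM per kb and ILV3 (dihydroxyacid dehydratase) at 927. The low end was held by arginine genes, with ARG8 at 8.10 and ARG5-6 at 14.9 CPM per kb. PRO3, the pyrroline-5-carboxylate reductase gene and the proline pathway's one member, stood at 498 CPM per kb.

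**Figure D1:**
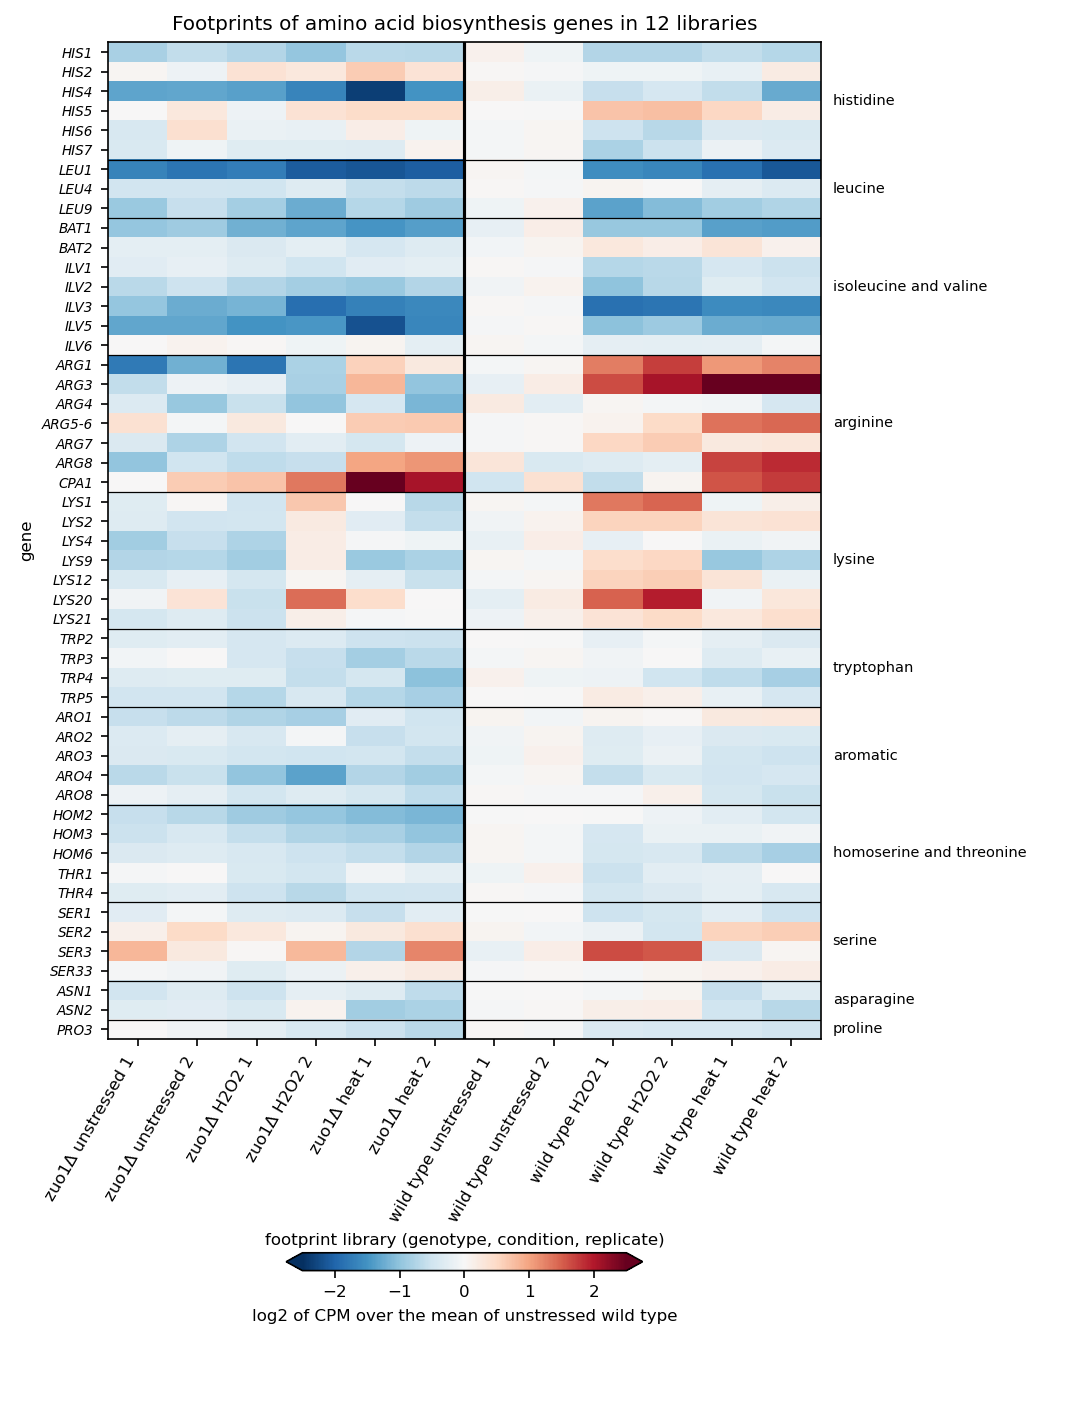
Footprint level of the enzyme genes (rows, by pathway; 1 is not shown) in 12 libraries (columns; zuo1Δ left of the line, wild type right), as log2 of CPM over the mean of unstressed wild type. LEU1, ILV3, ILV5, BAT1 and HIS4 are blue in all 6 zuo1Δ libraries, whereas ARG3 and ARG8 each reach their highest levels in wild-type heat.

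In unstressed cells 6 of the 12 enzymes whose footprints fell in the mutant belonged to the branched-chain pathways, and LEU1 fell the most. Of the 52 members, 12 (23.1%) fell in zuo1Δ and 0 rose, against 3.04% of all 5064 genes that fell and 1.78% that rose. The median member change was -0.36 and that of all genes 0.03. The falls covered 2 of 3 leucine genes, 4 of 7 isoleucine and valine genes, 2 of 6 histidine genes, 2 of 5 aromatic genes, 1 of 5 homoserine and threonine genes and 1 of 8 arginine genes. No gene of the lysine, tryptophan, serine, asparagine or proline pathways passed. Leaving out 1 library at a time gave 4 calls without wild-type replicate 1, 6 without wild-type replicate 2, 4 without zuo1Δ replicate 1 and 6 without zuo1Δ replicate 2; LEU1, BAT1 and ILV5 passed in each of the 10 alternatives. Scaling by library size alone, which moved the median of all genes by 0.24, gave 6 calls, all lower.

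LEU1 (YGL009C, chromosome VII, 476313 to 478652) encodes isopropylmalate isomerase, the iron-sulfur enzyme of the second leucine step. Its footprints had 632 and 566 CPM in unstressed zuo1Δ cells, against 2060 and 1937 CPM in wild type. Both mutant libraries lay far below both wild-type libraries, a log2 fold change of -1.74 ± 0.15 (edgeR adjusted p = 9.2e-05). LEU9, the minor isopropylmalate synthase gene, fell by 0.74 ± 0.18 to 129 and 165 CPM in zuo1Δ, against 226 and 264 CPM in wild type. Its major paralog LEU4 had 505 and 507 CPM in zuo1Δ and 716 and 693 CPM in wild type, which did not overlap but did not pass (-0.48 ± 0.13, edgeR adjusted p = 0.051).

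ILV5 (YLR355C, chromosome XII, 838066 to 839253), the member with the most footprints, had 1778 and 1776 CPM in zuo1Δ, against 4273 and 4438 CPM in wild type. The groups lay well apart, with a log2 fold change of -1.29 ± 0.16 (edgeR adjusted p = 0.00076). ILV3 (YJR016C, chromosome X, 464451 to 466208), whose product is another iron-sulfur enzyme and takes the next step after Ilv5, had 829 and 686 CPM in zuo1Δ and 1671 and 1587 CPM in wild type (-1.10 ± 0.20, edgeR adjusted p = 0.0079). BAT1, the mitochondrial branched-chain aminotransferase gene, had 497 and 527 CPM in zuo1Δ and 850.1 and 1101 CPM in wild type (-0.93 ± 0.14, edgeR adjusted p = 0.0036). ILV2, the catalytic subunit gene of acetolactate synthase, also fell (-0.59 ± 0.15), while its regulatory subunit gene ILV6 did not pass at 0.05 ± 0.15. Summed over the 7 isoleucine and valine genes, footprints were 4855 and 4857 CPM in zuo1Δ and 9010.0 and 9483 CPM in wild type, and over the 3 leucine genes 1265 and 1238 CPM in zuo1Δ and 3003 and 2894 CPM in wild type.

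**Figure D2:**
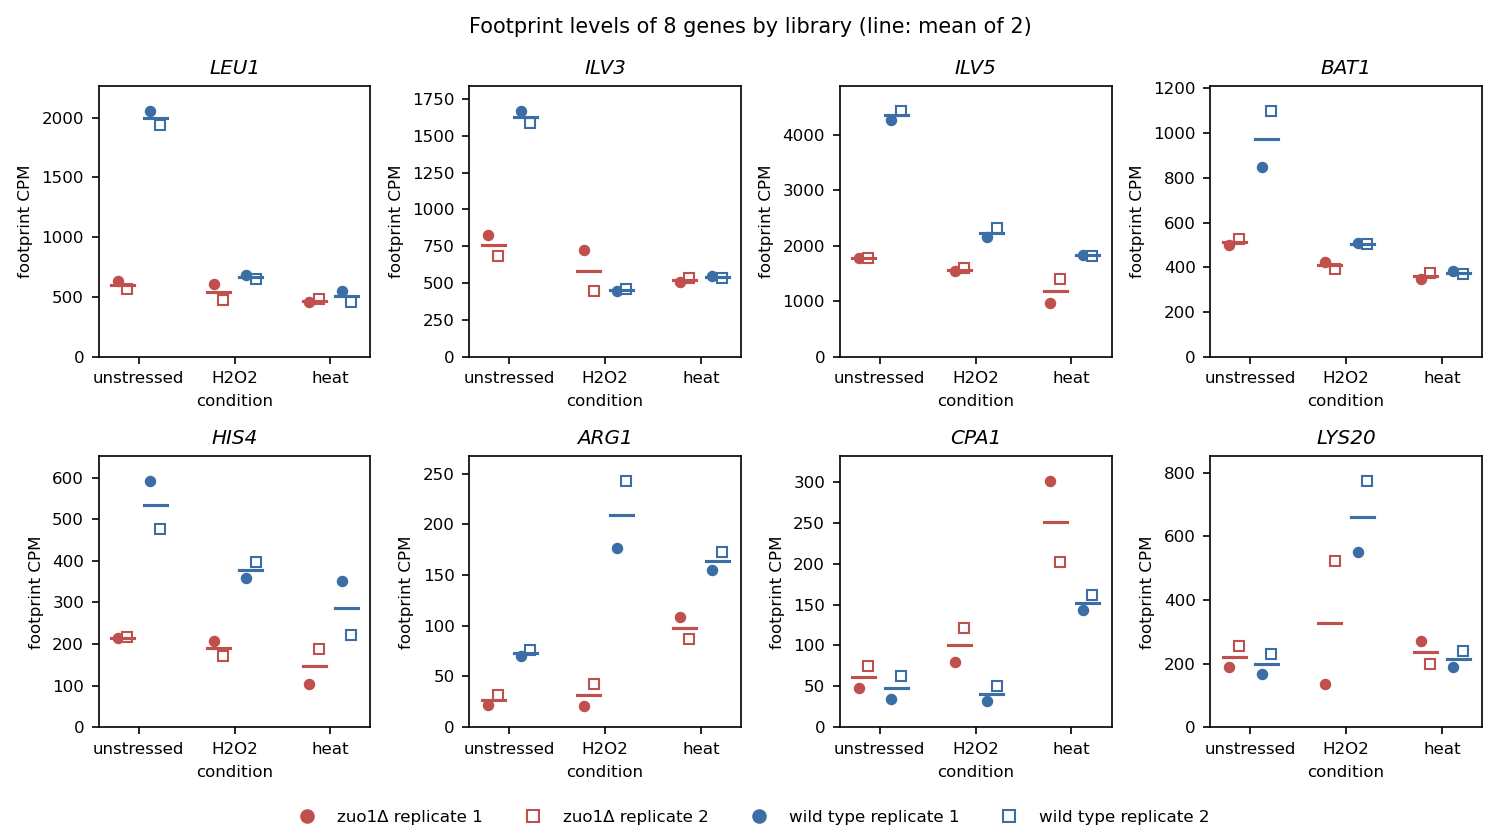
Footprint CPM (vertical axis, from 0) of 8 genes in each library by condition; red is zuo1Δ, blue wild type, filled circles replicate 1, open squares replicate 2, lines the mean of 2. LEU1, ILV3, ILV5 and BAT1 are high in unstressed wild type and lower in every other group, and LYS20 has 135 and 521 CPM in the zuo1Δ libraries labelled H2O2.

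The other 6 falls lay in 4 further pathways. ARG1 (YOL058W, chromosome XV, 219211 to 220473), the argininosuccinate synthetase gene, had 21.4 and 31.8 CPM in zuo1Δ and 70.5 and 75.7 CPM in wild type (-1.48 ± 0.32, edgeR adjusted p = 0.022). HIS4 (YCL030C, chromosome III, 65934 to 68333), which encodes a multifunctional histidine enzyme and is a classical Gcn4 target, had 214 and 216 CPM in zuo1Δ and 592 and 477 CPM in wild type (-1.31 ± 0.27, edgeR adjusted p = 0.015). In neither gene did the mutant and wild-type libraries overlap. HIS1, for the first histidine enzyme, fell by 0.72 ± 0.14, and the other 4 histidine genes lay between -0.24 and 0.14 without passing; the histidine median, -0.13, turned to 0.11 under scaling by library size alone. The aromatic trunk genes ARO1 and ARO4 each fell (-0.61 ± 0.13 and -0.61 ± 0.15), as did HOM2, for aspartate semialdehyde dehydrogenase (-0.64 ± 0.13). The largest changes among the pathways with no call were those of LYS9 (-0.72 ± 0.25), TRP5 (-0.48 ± 0.14), SER3 (0.58 ± 0.50), ASN1 (-0.40 ± 0.16) and PRO3 (-0.04 ± 0.13).

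**Figure D3:**
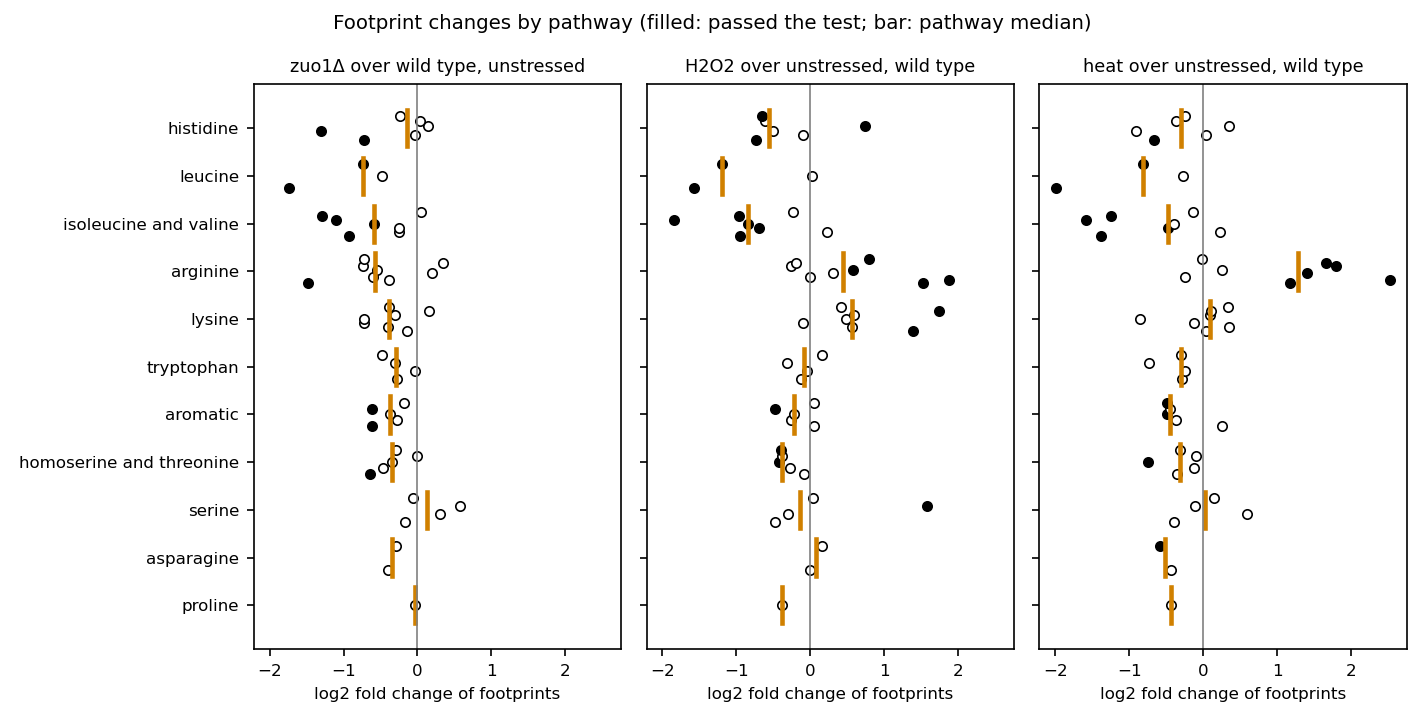
Log2 fold change of footprints (horizontal axis) for each of the 52 genes (points), by pathway (rows), for zuo1Δ over wild type unstressed (left), H2O2 over unstressed wild type (middle) and heat over unstressed wild type (right). Filled points passed at an adjusted p under 0.05 and orange bars are pathway medians; the leucine median is -0.74, -1.20 and -0.81 in that order, and the arginine median -0.57, 0.44 and 1.28.

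In wild-type cells compared under H2O2 and unstressed, the branched-chain pathway medians lay below 0 and the arginine and lysine medians above it. This comparison, the one with heat and the unstressed comparison of the genotypes share the 2 unstressed wild-type libraries. Footprints of 12 members (23.1%) fell, against 8.79% of all genes, and those of 8 members (15.4%) rose, against 9.36% of all genes. The median was -0.11 for the members and 0.05 for all genes. The falls included 2 of 3 leucine and 5 of 7 isoleucine and valine genes, the rises 4 of 8 arginine and 2 of 7 lysine genes, HIS5 and SER3. The rises were less stable than the falls under the alternatives given below. Scaling by library size alone gave 12 rises and 8 falls and turned the member median to 0.10, but kept the arginine and lysine medians above 0 (0.65 and 0.77) and the leucine and the isoleucine and valine medians below it (-0.98 and -0.63).

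ILV3 footprints fell to 447 and 462 CPM in wild-type H2O2 cells, against 1671 and 1587 CPM unstressed, the largest fall among the members (-1.84 ± 0.20, edgeR adjusted p = 0.00068). LEU1 had 685 and 649 CPM after H2O2 and 2060 and 1937 CPM unstressed (-1.58 ± 0.15). LEU9 (-1.20 ± 0.19), ILV5 (-0.96 ± 0.16), BAT1 (-0.95 ± 0.14), ILV2 (-0.84 ± 0.15) and ILV1, the threonine deaminase gene (-0.69 ± 0.13), fell too. Of the 10 branched-chain genes, only LEU4 (0.02 ± 0.13), ILV6 (-0.23 ± 0.15) and BAT2 (0.22 ± 0.13) did not pass. In histidine synthesis HIS1 (-0.74 ± 0.14) and HIS7 (-0.65 ± 0.18) fell and HIS5, for the aminotransferase, rose (0.74 ± 0.19). ARO4 (-0.48 ± 0.15), HOM6 (-0.42 ± 0.12) and THR4 (-0.40 ± 0.12) fell as well.

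LYS20, a homocitrate synthase gene and thus at the first lysine step, had 549.9 and 774 CPM in wild-type H2O2 cells and 169 and 229 CPM in unstressed ones (1.74 ± 0.47, edgeR adjusted p = 0.024). LYS1, for the last lysine enzyme, had 244 and 269 CPM after H2O2 and 102 and 94.3 CPM unstressed (1.39 ± 0.33). The 5 other lysine genes did not pass, with values from -0.10 for LYS4 to 0.59 for LYS12. ARG1 rose to 176 and 243 CPM after H2O2, against 70.5 and 75.7 CPM unstressed (1.52 ± 0.31), and ARG3 to 12.7 and 17.1 CPM, against 3.53 and 4.65 CPM (1.88 ± 0.52). The stress libraries of all 4 genes lay above the unstressed ones. ARG7, for an enzyme of ornithine synthesis, rose too (0.58 ± 0.18), while CPA1, a gene of carbamoyl phosphate synthesis, did not pass at -0.20 ± 0.36. SER3, a phosphoglycerate dehydrogenase gene, had 82.4 and 77.5 CPM after H2O2 and 23.3 and 29.9 CPM unstressed (1.58 ± 0.50). Against 20 calls with all libraries there were 10 without unstressed replicate 1, 8 without unstressed replicate 2, 9 without H2O2 replicate 1 and 8 without H2O2 replicate 2. The 7 members that passed in each of the 10 alternatives all fell (HIS1, LEU1, LEU9, BAT1, ILV1, ILV3 and ILV5), so none of the 8 rises did.

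In wild-type cells heat lowered branched-chain genes and raised arginine genes. Footprints of 11 members (21.2%) fell, against 6.28% of all genes, and 5 (9.62%) rose, against 3.53%; all 5 were arginine genes. LEU1 had 549 and 458 CPM after heat and 2060 and 1937 CPM unstressed (-1.99 ± 0.16, edgeR adjusted p = 5.7e-05). ILV3 (-1.59 ± 0.20), BAT1 (-1.38 ± 0.15), ILV5 (-1.25 ± 0.16), LEU9 (-0.81 ± 0.19) and ILV1 (-0.47 ± 0.13) fell as well, and the remaining falls were HOM6 (-0.75 ± 0.12), HIS1 (-0.66 ± 0.14), ASN2 (-0.59 ± 0.15), ARO8 (-0.49 ± 0.13) and ARO3 (-0.49 ± 0.14). No lysine gene passed; LYS20 stood at 0.11 ± 0.46.

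ARG3 had 23.5 and 23.9 CPM in wild-type heat cells and 3.53 and 4.65 CPM in unstressed ones (2.53 ± 0.51, edgeR adjusted p = 0.0091). The unstressed wild-type libraries held 1686930 and 1788399 counts, so the ARG3 levels there rest on few reads. ARG8, the acetylornithine aminotransferase gene, had 33.2 and 37.8 CPM after heat and 12.7 and 7.97 CPM unstressed (1.79 ± 0.31). CPA1 had 143 and 161 CPM after heat and 33.9 and 62.4 CPM unstressed (1.66 ± 0.35). ARG5-6, which encodes 2 enzymes of the ornithine branch in 1 precursor, rose by 1.40 ± 0.21, and ARG1 by 1.17 ± 0.31. In each of these 5 genes the heat libraries lay above the unstressed ones, while ARG4 and ARG7 did not pass at -0.24 and 0.26. The 16 calls became 8 without unstressed replicate 1, 8 without unstressed replicate 2, 10 without heat replicate 1 and 6 without heat replicate 2. LEU1, BAT1, ILV3, ILV5 and ARG5-6 passed in each of the 10 alternatives, and scaling by library size alone gave 8 rises and 5 falls.

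Under H2O2 the largest differences between the genotypes lay in arginine genes. Of the members, 18 (34.6%) were lower in zuo1Δ, against 9.68% of all genes, and 1 was higher, against 9.34%; the median was -0.32 for the members and 0.00 for all genes. This includes the zuo1Δ library labelled H2O2 replicate 1, whose oxidative markers stood at the unstressed level. Without it 8 members were lower and 1 higher, while calls numbered 7 without wild-type replicate 1, 6 without wild-type replicate 2 and 21 without zuo1Δ replicate 2. Scaling by library size alone gave 11 lower and 4 higher.

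ARG1 had 20.5 and 42.4 CPM in the zuo1Δ libraries labelled H2O2 and 176 and 243 CPM in wild-type H2O2 cells (-2.78 ± 0.31, edgeR adjusted p = 0.00053). Both mutant libraries lay below both wild-type libraries, and the difference was -2.28 without replicate 1. ARG3 had 3.53 and 2.32 CPM in zuo1Δ and 12.7 and 17.1 CPM in wild type (-2.30 ± 0.40; -2.66 without replicate 1). CPA1, whose leader peptide is known to stall ribosomes when arginine is plentiful, went the other way. It had 79.4 and 121 CPM in zuo1Δ and 31.4 and 50.6 CPM in wild type (1.24 ± 0.32; 1.54 without replicate 1), and passed neither without wild-type replicate 1 (0.98) nor without wild-type replicate 2 (1.66) nor without zuo1Δ replicate 2 (0.92). The arginine median was -0.85 with all libraries and -0.88 without the 3 doubted ones.

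Among lysine genes 3 of 7 were lower in zuo1Δ under H2O2 (LYS1 at -1.20 ± 0.31, LYS12 at -0.77 ± 0.20 and LYS2 at -0.64 ± 0.20), with a pathway median of -0.74. The 2 mutant libraries differed: LYS20 had 135 CPM in replicate 1 and 521 CPM in replicate 2, against 549.9 and 774 CPM in wild type. Without replicate 1 the lysine median was -0.31 and 0 of 7 passed. Outside arginine synthesis the members that passed both with all libraries and without replicate 1 were HOM2 (-0.86 ± 0.13), ARO1 (-0.84 ± 0.13), TRP5 (-0.71 ± 0.14) and ARO4 (-0.66 ± 0.15), and within it ARG7 passed both (-0.95 ± 0.17). HIS4 passed with all libraries (-0.99 ± 0.26) and not without replicate 1 (-1.12). LEU1 and ILV3, which had passed between the genotypes without stress, stood at -0.31 ± 0.15 and 0.36 ± 0.19 with all libraries and at -0.47 and -0.01 without replicate 1, and passed in neither.

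After heat 10 members (19.2%) were lower in zuo1Δ, against 3.61% of all genes, and 0 were higher, against 2.86%. ARG3 had 7.22 and 2.06 CPM in zuo1Δ and 23.5 and 23.9 CPM in wild type (-2.23 ± 0.44, edgeR adjusted p = 0.012). The zuo1Δ heat replicate 2 library held 1719832 counts, so its ARG3 level rests on few reads. ARG5-6 had 60.3 and 60.8 CPM in zuo1Δ and 99.5 and 104 CPM in wild type (-0.75 ± 0.20). In both genes the mutant libraries lay below the wild-type ones. HOM3, for aspartate kinase (-0.77 ± 0.15), HOM2 (-0.76 ± 0.13), LYS2 (-0.77 ± 0.20), ARO1 (-0.64 ± 0.13), ILV5 (-0.62 ± 0.16), BAT2 (-0.59 ± 0.13) and TRP3 (-0.52 ± 0.14) were lower as well. CPA1 had 301 and 202 CPM in zuo1Δ and 143 and 161 CPM in wild type, higher in both mutant libraries, but did not pass (0.73 ± 0.32, edgeR adjusted p = 0.19). Calls numbered 1 without wild-type replicate 1, 1 without wild-type replicate 2, 5 without zuo1Δ replicate 1 and 3 without zuo1Δ replicate 2, and 0 of the 10 members passed in every alternative. The heat shock genes moved with this comparison, at 0.13 and -0.65 in zuo1Δ against 1.60 and 1.18 in wild type as given above, and their part in the result was not tested.

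The interaction asked whether a stress moved footprints differently in the 2 genotypes. Both interactions use the 2 unstressed wild-type libraries. These also enter the unstressed genotype difference and the wild-type stress changes above, so the results are not independent of one another. For H2O2, LEU1 (1.43 ± 0.21, edgeR adjusted p = 0.021) and ILV3 (1.47 ± 0.27, edgeR adjusted p = 0.035) passed, 2 of 52 members (3.85%) and both higher, against 0.889% of all genes higher and 0.474% lower. LEU1 had 606 and 473 CPM in zuo1Δ under H2O2 and 632 and 566 CPM in zuo1Δ unstressed, whereas wild type had 685 and 649 CPM under H2O2 and 2060 and 1937 CPM unstressed. Without the doubted replicate 1 the values were 1.31 for LEU1 and 1.13 for ILV3 and both passed. For heat, LEU1 alone passed (1.63 ± 0.21, edgeR adjusted p = 0.0091), 1 of 52 members (1.92%), against 0.612% of all genes higher and 0.415% lower. It had 455 and 482 CPM in zuo1Δ heat cells. No arginine or lysine gene passed either interaction; ARG3 stood at -1.91 ± 0.68 for H2O2 and -1.84 ± 0.72 for heat. For H2O2 calls numbered 0 without unstressed wild-type replicate 2, 0 without wild-type H2O2 replicate 1, 0 without wild-type H2O2 replicate 2, 0 without unstressed zuo1Δ replicate 1 and 13 without zuo1Δ H2O2 replicate 2, and for heat 0 without wild-type heat replicate 2 and 2 without zuo1Δ heat replicate 1. DESeq2 called 4 in each.

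Averaged over the 3 conditions, 28 members (53.8%) were lower in zuo1Δ, against 13.1% of all genes, and CPA1 alone was higher (1.92%, against 12.5% of all genes). The medians were -0.27 for the members and 0.02 for all genes. Lower calls fell in 9 of 11 pathways: 6 of 8 arginine, 5 of 7 lysine, 4 of 7 isoleucine and valine, 3 of 4 tryptophan, 3 of 5 homoserine and threonine, 2 of 5 aromatic, 2 of 3 leucine, 2 of 6 histidine and 1 of 2 asparagine genes, but 0 of 4 serine genes. Large falls were those of ARG1 (-1.67 ± 0.18), ARG3 (-1.64 ± 0.29), HIS4 (-1.09 ± 0.15) and ILV5 (-0.81 ± 0.09). For HOM2, ARO1, HIS4, BAT2, ILV5 and ARG7 every zuo1Δ library lay below every wild-type library. How many of all genes separated in this way was not counted, so the separation does not set these members apart. HOM2 ranged from 453 over a median of 522 to 665 CPM in zuo1Δ and from 728 over 946 to 1004 CPM in wild type. ARO1, which encodes the pentafunctional enzyme of the aromatic trunk, ranged from 435 over 506 to 635 CPM in zuo1Δ and from 736 over 807 to 926 CPM in wild type. Of the 29 calls 18 passed in each of the 18 alternatives, and scaling by library size alone gave 18 lower and 6 higher.

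In none of the 6 paralog pairs did both copies pass in wild type under the same stress. The files do not say how reads shared by near-identical copies were counted, so the split within a pair is uncertain. BAT1 fell in wild type after H2O2 and heat, whereas the cytosolic copy BAT2 had 592 and 549.8 CPM after H2O2, 614 and 532 CPM after heat and 465 and 516 CPM unstressed and did not pass in either. LEU9 fell in both stresses (-1.20 and -0.81), whereas LEU4 stood at 0.02 and -0.28. LYS20 rose after H2O2, whereas LYS21 had 253 and 281 CPM then and 183 and 218 CPM unstressed (0.41 ± 0.20, not passing). SER3 rose after H2O2, whereas SER33 had 175 and 187 CPM then and 174 and 181 CPM unstressed. ARO4 fell after H2O2 (-0.48) and ARO3 after heat (-0.49). ASN2 fell after heat (-0.59 ± 0.15), while ASN1 stood at -0.44 ± 0.16. The difference between the copies of a pair was not tested.

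**Figure D4:**
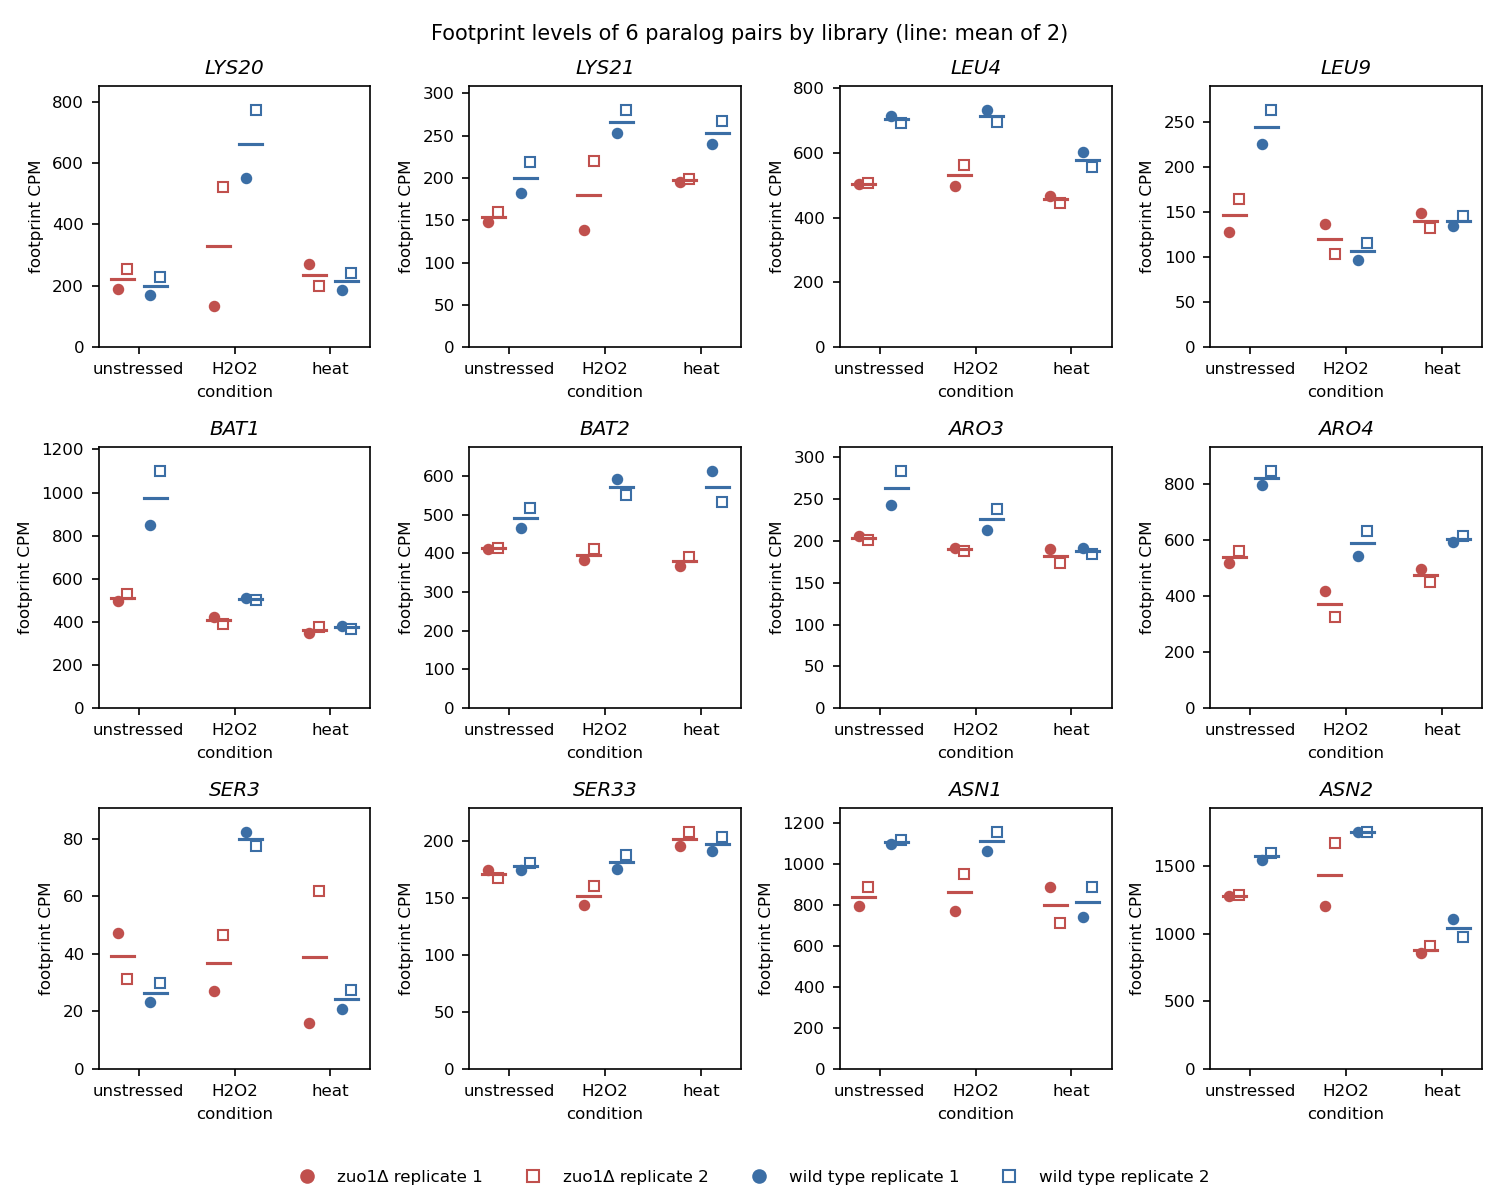
Footprint CPM (vertical axis, from 0) of 6 paralog pairs in each library by condition; red is zuo1Δ, blue wild type, filled circles replicate 1, open squares replicate 2, lines the mean of 2. LYS20 reaches 774 CPM in wild-type H2O2 cells and LYS21 281, and BAT1 is highest in unstressed wild type while BAT2 stays between 367 and 614 CPM.

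In mRNA the sign of the members' median difference between the genotypes depends on the scaling. The TMM factors of mRNA libraries ran from 0.39 to 1.94, and the 50 most abundant genes took 19.0% to 61.7% of a library. Scaling by library size alone moved the median of all genes by 1.52 for zuo1Δ against wild type unstressed, 0.74 under H2O2 and 1.5 after heat. With TMM scaling the member medians were -1.14, -1.01 and -0.68 in that order, and with library size alone 0.35, -0.25 and 0.78. Relative to the median of all genes they were -1.12, -1.02 and -0.74 with TMM scaling and -1.15, -1.0 and -0.78 with library size alone. Below, mRNA changes are those with TMM scaling.

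In unstressed cells 2 members (3.85%) passed in mRNA, both lower in zuo1Δ, against 0.178% of all genes. BAT1 mRNA had 284 and 279 CPM in zuo1Δ and 1178 and 1406 CPM in wild type (-2.2 ± 0.41, edgeR adjusted p = 0.047). LEU9 mRNA had 155 and 136 CPM in zuo1Δ and 638 and 685 CPM in wild type (-2.18 ± 0.41, edgeR adjusted p = 0.047). LEU1 mRNA had 286 and 409 CPM in zuo1Δ and 1254 and 2923 CPM in wild type, without overlap, and did not pass (-2.59 ± 0.50, edgeR adjusted p = 0.052). ILV3 mRNA, with 1097 and 559 CPM in zuo1Δ and 6328 and 4387 CPM in wild type, did not pass either (-2.69 ± 0.62). Calls numbered 1 without wild-type replicate 1, 0 without wild-type replicate 2, 12 without zuo1Δ replicate 1, 0 without zuo1Δ replicate 2 and 0 without the 3 doubted libraries, and 25 with DESeq2. Library size alone gave 6 higher and 2 lower, with BAT1 at -0.70 and LEU9 at -0.69, neither passing. With the replicate number as a block more members passed, as counted in the last paragraph.

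Under H2O2 0 members passed in mRNA between the genotypes by edgeR, against 0.276% of all genes. However, DESeq2 called 21, and 29 had an edgeR p below 0.05 before adjustment. Some members passed by edgeR with the replicate number as a block, as counted in the last paragraph. ARG1 mRNA had 25.1 and 54.5 CPM in the zuo1Δ libraries labelled H2O2 and 179 and 180.3 CPM in wild type (-2.17 ± 0.42, edgeR adjusted p = 0.054; -2.84 without the 3 doubted libraries, not passing). After heat 20 members (38.5%) were lower, against 21.0% of all genes, and SER3 was higher, against 16.3%. These include the doubted library: 11 passed without the zuo1Δ library labelled heat replicate 1, 0 without heat replicate 2, 0 without wild-type replicate 1 and 0 without the 3 doubted libraries. THR1 mRNA, for homoserine kinase, had 336 and 252 CPM in zuo1Δ and 3002 and 1667 CPM in wild-type heat cells, the largest of these changes (-2.99 ± 0.64; -3.21 without the 3 doubted libraries, not passing). Library size alone gave 17 higher and 1 lower after heat, and 15 of the 21 members kept their direction. Averaged over the 3 conditions, 36 members (69.2%) were lower and 0 higher, against 26.4% and 24.2% of all genes. ILV3 (-2.13 ± 0.35), HOM2 (-2.07 ± 0.28), ILV5 (-2.03 ± 0.33) and ARG1 (-2.02 ± 0.24) were the largest and the ones that passed in each of the 18 alternatives; by library size alone 14 were higher and 4 lower, and 18 of the 36 kept their direction.

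In wild type the mRNA members that passed under stress were all branched-chain genes. After H2O2 4 members (7.69%) fell, against 1.22% of all genes, namely ILV3 (-2.79 ± 0.63), LEU1 (-2.23 ± 0.50), LEU9 (-2.06 ± 0.41) and BAT1 (-1.75 ± 0.40), and 0 rose, against 1.44%. ILV3 mRNA had 1040.0 and 506 CPM after H2O2 and 6328 and 4387 CPM unstressed. After heat 2 members (3.85%) fell, against 0.296% of all genes, LEU1 (-3.60 ± 0.53) with 202 and 142 CPM against 1254 and 2923 CPM unstressed, and BAT1 (-2.29 ± 0.41). Arginine and lysine genes did not pass in either stress, with ARG1 at 1.22 ± 0.41 after H2O2, LYS20 at 0.88 ± 0.63 after H2O2 and CPA1 at 2.24 ± 0.53 after heat. H2O2 calls numbered 2 without unstressed replicate 1 and 0 without unstressed replicate 2, H2O2 replicate 1 or H2O2 replicate 2; heat calls numbered 9 without unstressed replicate 1 and 0 without unstressed replicate 2, heat replicate 1 or heat replicate 2. Without the 3 doubted libraries, which enter these fits through the shared spread, calls were 0 and 1. More members passed after heat with the replicate number as a block, as counted in the last paragraph. Library size alone gave 11 higher and 1 lower after H2O2 and 1 of each after heat, with the 4 genes above still below 0 (-0.61 to -1.66 after H2O2) and LEU1 at -3.26 after heat.

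**Figure D5:**
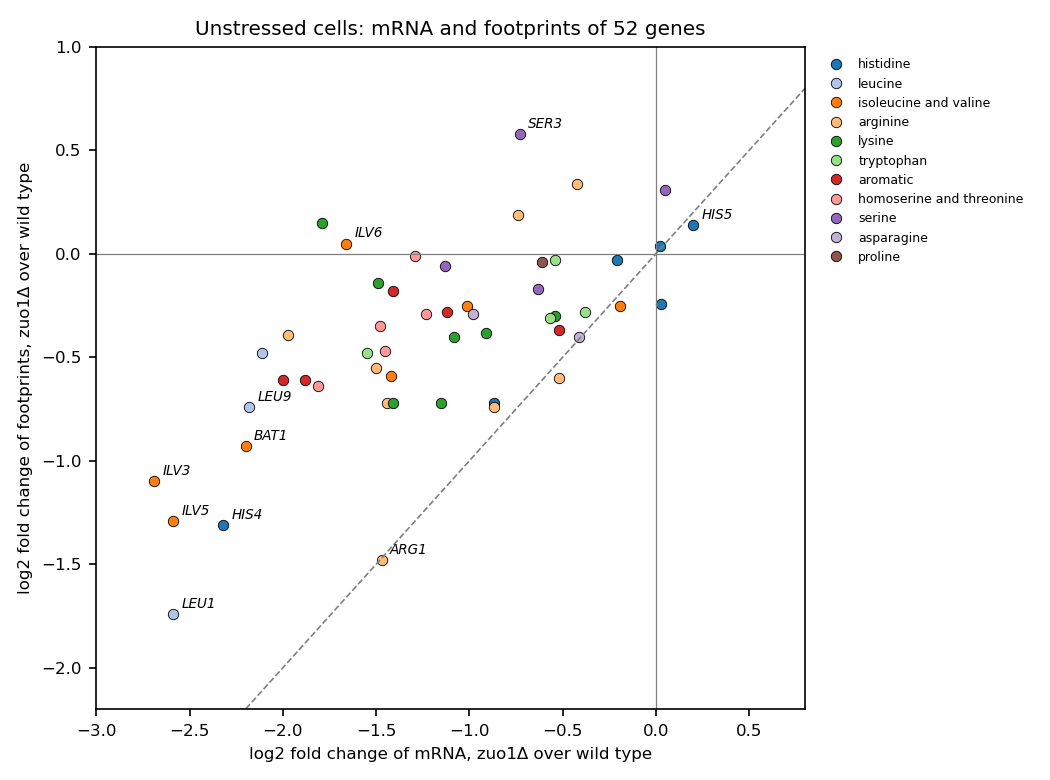
Log2 fold change of mRNA (horizontal axis) and of footprints (vertical axis), zuo1Δ over wild type in unstressed cells, for 52 genes coloured by pathway; the dashed line marks equal change. LEU1, ILV3, ILV5, HIS4 and BAT1 lie at the lower left. With TMM scaling, 47 of 52 genes have a lower mRNA than footprint change, and how many of all genes do so was not counted.

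Across the 52 members the unstressed genotype differences of mRNA and footprints had Pearson's r of 0.65 and Spearman's rho of 0.60, as a description across genes, which are not independent. With TMM scaling both lay below 0 in 43 members and both above in 3. With library size alone the member median of the mRNA difference was 0.35, against -1.14 with TMM scaling, so these signs depend on the scaling. The signs of all genes were not counted in this way. Translational efficiency was taken as the change in footprints less that in mRNA, from a single model of the 24 libraries, and had a member median of 0.61, against -0.07 for all genes. By edgeR 0 members passed, against 0.0394% of all genes, while DESeq2 called 2 and 11 had an edgeR p below 0.05 before adjustment. Without the zuo1Δ mRNA replicate 1 there were 2 calls, and with library size alone the median was -0.44, against -1.16 for all genes. In wild type 0 members passed after H2O2 (median 0.29, against 0.08 for all genes; 4 with an unadjusted p under 0.05, 0 by DESeq2) and 0 after heat (0.17, against -0.07; 8 with an unadjusted p under 0.05, 1 by DESeq2), against 0% and 0.0986% of all genes. Library size alone turned the H2O2 median to -0.55, and without unstressed mRNA replicate 1 5 members passed after heat.

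Of 11 further genes of these pathways (HIS3, TRP1, ARG2, ARO7, ARO9, PHA2, TYR1, PRO1, PRO2, LYS5 and ORT1), 0 passed in footprints between the genotypes unstressed or in wild type after H2O2 or heat. With 11 genes and the shares of all genes given above for these comparisons, such counts do not set them apart. Averaged over the conditions, 2 of 11 were lower in zuo1Δ, against 13.1% of all genes. They were ARG2, for acetylglutamate synthase (-0.44 ± 0.14), and ORT1, for the mitochondrial ornithine carrier (-0.56 ± 0.16). Under H2O2 1 of 11 was lower, ORT1 (-0.95 ± 0.26), against 9.68% of all genes. These counts do not set the 11 genes apart either, and the H2O2 value includes the doubted zuo1Δ replicate 1. Of 8 regulators (GCN4, GCN2, LEU3, LYS14, BAS1, PHO2, ARG80 and ARG81), 0 passed in unstressed footprints, against 3.04% of all genes lower and 1.78% higher, which 8 genes cannot be set apart from. GCN4 footprints had 35.2 and 66.5 CPM in zuo1Δ heat cells and 194 and 310.3 CPM in wild-type heat cells (-2.35 ± 0.58), against 24.7 and 43.2 CPM in unstressed wild type. GCN4 mRNA went the other way and did not pass. It had 498.5 and 412.8 CPM in the zuo1Δ libraries labelled heat, the first of them doubted, and 179.6 and 220.8 CPM in wild-type heat cells. BAS1, a regulator of histidine and purine genes, was higher in zuo1Δ under H2O2 (0.92 ± 0.29) and rose in wild type after heat (1.19 ± 0.33). Under H2O2 it alone passed, against 9.34% of all genes higher, with the doubted zuo1Δ replicate 1 included. After heat GCN4 alone was lower in zuo1Δ, against 3.61% of all genes, and GCN4 and BAS1 rose in wild type, against 3.53%. GCN4 was also the only regulator that passed in footprints averaged over the conditions, lower in zuo1Δ, against 13.1% of all genes. In efficiency it alone of the regulators passed in wild type after heat, where it was higher, against 0.0986% of all genes in either direction. In mRNA 5 of 8 regulators were higher in zuo1Δ after heat and 1 lower, against 16.3% and 21.0% of all genes. For mRNA averaged over the conditions 5 were higher and 0 lower, against 24.2% and 26.4%. Both mRNA counts include doubted libraries and depend on TMM scaling. Library size alone moved the median mRNA difference of all genes by 1.5 after heat and by 1.26 averaged. Regulator calls were not counted under the alternatives.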

How the data were processed

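The authors deposited raw read counts per gene of 12 ribosome footprint and 12 poly(A) mRNA libraries. The submitters' processing notes name R64 as the build and SAMtools, HISAT2, Bowtie2 and cutadapt as tools, without versions. How reads were counted, on which annotation and with what strand setting, is not given in the sources used here. Of 5211 genes 5198 matched the R64 gene table, and 3 empty lines were dropped. The 141 genes at 0 in all libraries of a genotype were left out, leaving 5070.

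edgeR 4.0.16 (limma 3.58.1, R 4.3.3) was run on these counts with TMM factors, filterByExpr (minimum count 10, minimum total 15; 5064 footprint and 5070 mRNA genes kept), a mean per group over the 12 libraries of an assay, and the quasi-likelihood test with Benjamini-Hochberg adjustment over all genes, passing under 0.05. All 52 members passed the filter; the values of 1 of them are not reported here, although counts and medians include it. The SE was taken as the size of the log2 fold change divided by the root of F. Efficiency came from 1 model of 24 libraries. Scripts were tested on simulated data. Alternatives were DESeq2 1.42.0, scaling by RLE factors or by library size alone, omitting the filter, a replicate block, leaving out the 3 doubted libraries together, and leaving out each library in turn.

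The biological coefficient of variation was 0.169 for footprints and 0.318 for mRNA, and the SD across genes of the log2 ratio between replicates was 0.315 to 0.525 and 0.56 to 0.852. No molecular identifiers are named, so reads need not be independent molecules. The members, pathway groups and other lists were chosen with earlier results of these data known. In each comparison the text names up to 8 members that passed with the largest change and those that went the other way, the largest change of each pathway, the paralog pairs, PRO3 and the extremes of level; the other members are named to account for the counts.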

Additional observations from a re-analysis of the deposited data

Results flagged for a closer look

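The response of LEU1 footprints to H2O2 differed between the genotypes, with an interaction of 1.43 on the log2 scale (edgeR adjusted p = 0.021). In zuo1Δ it had 606 and 473 CPM after H2O2 and 632 and 566 CPM unstressed, whereas wild type had 685 and 649 CPM after H2O2 and 2060 and 1937 CPM unstressed. For ILV3 the interaction was 1.47 (edgeR adjusted p = 0.035), with 726 and 443 CPM after H2O2 and 829 and 686 CPM unstressed in zuo1Δ, and 447 and 462 CPM after H2O2 and 1671 and 1587 CPM unstressed in wild type. Neither passed without unstressed wild-type replicate 2, wild-type H2O2 replicate 1, wild-type H2O2 replicate 2 or unstressed zuo1Δ replicate 1, and both passed without the zuo1Δ library labelled H2O2 replicate 1.

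The response of LEU1 footprints to heat also differed between the genotypes, with an interaction of 1.63 (edgeR adjusted p = 0.0091). It had 455 and 482 CPM in zuo1Δ heat cells and 549 and 458 CPM in wild-type heat cells, so all 4 heat libraries lay within a narrow range. It did not pass without wild-type heat replicate 2. The 2 LEU1 interactions, its unstressed genotype difference and its wild-type falls share the 2 unstressed wild-type libraries and are not independent results.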

How the results depend on the processing

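Among members named for passing, none changed direction under any alternative, but under library size alone the mRNA direction held for 15 of 21 called members after heat and 18 of 36 averaged over the conditions. Values near 0 that did not pass, such as that of ILV3 footprints under H2O2 between the genotypes (0.36, and -0.01 without zuo1Δ replicate 1), can change sign. The members called with RLE factors numbered within 1.5 times those with TMM in every comparison. The counts of members that passed moved as follows. With library size alone they were 6 for footprints between the genotypes unstressed, 5 after heat, 8 for mRNA unstressed, 18 for mRNA averaged over the conditions and 12 for mRNA of wild type after H2O2. Without the low-count filter they were 12 for mRNA between the genotypes unstressed and 6 under H2O2. With DESeq2 they were 4 for each interaction, 25 and 21 for mRNA between the genotypes unstressed and under H2O2, 11 and 16 for mRNA of wild type after H2O2 and heat, and 2 and 1 for efficiency unstressed and after heat. Without the 3 doubted libraries they were 9 for footprints under H2O2, 3 for the heat interaction, 0 for mRNA unstressed, 0 for mRNA after heat, and 0 and 1 for mRNA of wild type after H2O2 and heat. The cause of these moves was not tested.

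Leaving out single libraries gave 4 to 6 footprint calls between the genotypes unstressed, 6 to 21 under H2O2 and 1 to 5 after heat, 8 to 10 in wild type after H2O2, 6 to 10 after heat, 0 to 13 for the H2O2 interaction and 0 to 2 for the heat interaction. For mRNA it gave 0 to 12 unstressed, 0 to 17 after heat, and 0 to 2 and 0 to 9 in wild type after H2O2 and heat, and for efficiency 0 to 2 unstressed and 0 to 5 after heat.

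Replicate numbers were not taken as pairs in the main fits, since not every pair of groups had a positive correlation. Deviations of same-numbered libraries correlated at -0.074 to 0.35 for footprints and -0.33 to 0.78 for mRNA, over 15 pairs of groups each. The mRNA counts of calls depend on this choice, as the block counts below show. Whether libraries of one number were handled together was not tested. With the replicate number as a block, 14 members passed in footprints unstressed, and in mRNA 21 passed unstressed, 14 under H2O2 and 7 in wild type after heat; the other counts stayed within 1.5 times. Shallow libraries, down to 1686930.0 counts, limit the precision for low genes such as ARG3.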
